A study of Danio rerio with 45 samples.

Results

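Cells of the zebrafish gastrula hold on to each other and to the matrix around them through a small set of proteins, and 8 of the genes that encode or control them are described here: has2, itga5, cdh1, cdh2, epcam, snai1a, snai1b and snai2. The rule that picks them goes by gene name and uses no measured value, but the 8 names were chosen with earlier results of these data known. All 8 were found among the 31966 genes of the expression table, epcam under the symbol EPCAM. The samples were intact zebrafish (Danio rerio) embryos of strain AB/PS in 3 states: injected with a morpholino against the cohesin subunit Rad21 (Rad21 MO), injected with a morpholino against the DNA-binding protein CTCF (CTCF MO), or wild type (WT). A morpholino is a synthetic antisense molecule that keeps an RNA from being spliced or translated, and which of these applied here is not given in the sources used here. Each state was sampled 5 times, counted in hours after fertilisation (hpf): early at 2.5 and 3.3 hpf, later at 4.5 and 5.3 hpf, and last at 10 hpf. There were 3 libraries per state and stage, numbered 0, 1 and 2 here as in the table's columns, and each held 100 pooled embryos matched in stage by eye. The labels do not say whether WT embryos received a control injection, nor whether the 3 libraries of a group came from separate clutches, so that p-values measure only the spread between these libraries. The design set the morpholino embryos beside WT before and after the embryo's own genome is activated.

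In gastrulation the embryo's cells spread over the yolk, move inwards and converge on the dorsal side. E-cadherin (cdh1) holds the blastoderm together and is needed for epiboly in zebrafish, while N-cadherin (cdh2) takes over in neural and mesodermal tissue. Hyaluronan made by Has2 is needed for dorsal convergence in zebrafish, integrin α5 (itga5) binds fibronectin, EpCAM is an epithelial surface protein that supports cadherin adhesion, and the Snail proteins (snai1a, snai1b, snai2) are repressors that lower cadherin adhesion in migrating cells.

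On the genome build Zv9, as the authors' table gives positions (whether these count from 0 or from 1 is not stated), has2 lay at chr16:17749944-17767770, itga5 at chr23:33661295-33771839 and cdh1 at chr7:56206924-56228078. The other adhesion genes lay at chr20:17786019-17865155 (cdh2) and chr13:8206228-8208820 (epcam). The Snail family genes lay at chr11:26185053-26191155 (snai1a), chr23:2520267-2527047 (snai1b) and chr24:36882657-36888674 (snai2). A 5S ribosomal RNA row overlaps cdh1 and another overlaps itga5. Levels are FPKM, fragments per kilobase of transcript and 1e+06 mapped fragments, so that levels of different genes are compared per length.

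Across the 45 libraries the FPKM summed to between 675988 and 1815960, and between 12788 and 15833 genes reached 1 FPKM. Read totals are not given with FPKM, so depth per library is unknown. In 2 samples the age in the labels differs from the age in the title: a Rad21 MO sample titled 3.3 hpf is labelled 4.5 hpf, and another titled 4.5 hpf is labelled 3.3 hpf. The table's columns carry a stage in their own name, and has2 was at 4.49 to 9.69 FPKM in the 3 Rad21 MO columns named 3.3 hpf and at 56.0 to 72.8 FPKM in those named 4.5 hpf. The RNA of a morpholino's target does not check the injection. The rad21a level was 100.5 FPKM in Rad21 MO and 143 in WT embryos at 4.5 hpf, 154 in Rad21 MO and 203 in WT embryos at 5.3 hpf, and 183 in Rad21 MO and 170.0 in WT embryos at 10 hpf (means, n = 3 each, not tested here). The ctcf level was 237 FPKM in CTCF MO, 329 in Rad21 MO and 496 in WT embryos at 5.3 hpf, and 155 in CTCF MO, 96.0 in Rad21 MO and 150.3 in WT embryos at 10 hpf. Whole embryos hold many cell types, and fewer cells of a type cannot be told apart from less RNA per cell.

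In WT embryos the 8 genes followed several courses, tested between neighbouring stages with limma on log2(FPKM + 1) and called at an adjusted p under 0.05. Between 2.5 and 3.3 hpf has2 and snai2 were called higher, 2 of 8 genes against 2.46% of all genes called in either direction. At 4.5 against 3.3 hpf 6 genes were higher, has2 by 4.37 ± 0.18 on the log2 scale (SE), snai2 by 2.87 ± 0.26, snai1b by 2.80 ± 0.24, cdh2 by 1.69 ± 0.22, snai1a by 1.06 ± 0.16 and itga5 by 0.65 ± 0.11; 46.6% of all genes were called in this step. At 5.3 against 4.5 hpf cdh2 (1.21 ± 0.22), itga5 (0.65 ± 0.11) and snai1a (0.59 ± 0.16) were higher, 3 of 8 against 24.4% of all genes. The itga5 step at 4.5 hpf and the snai1a step at 5.3 hpf were not called after the libraries were rescaled to a common sum (adjusted p = 0.621 and 0.328). The snai1a step at 5.3 hpf was not called in 5 of 12 alternatives, also under quantile normalization (adjusted p = 0.214) and without WT library 0 or 2 of 4.5 hpf or library 0 of 5.3 hpf (adjusted p = 0.0686, 0.0659 and 0.0618).

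The step into late gastrulation divided the genes. At 10 hpf against 5.3 hpf all 8 genes were called in WT, against 68.9% of all genes. N-cadherin and snai1b were higher, cdh2 by 2.56 ± 0.22 and snai1b by 2.23 ± 0.24 on the log2 scale. The other 6 were lower: snai2 by -2.005 ± 0.26, has2 by -1.97 ± 0.18, snai1a by -1.68 ± 0.16, cdh1 by -1.42 ± 0.25, epcam by -1.29 ± 0.26 and itga5 by -1.24 ± 0.11. Adjusted p-values in this step ran from 2.17e-07 for cdh2 to 0.00049 for epcam, and all 8 calls held in the 12 alternatives tried.

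**Figure D1:**
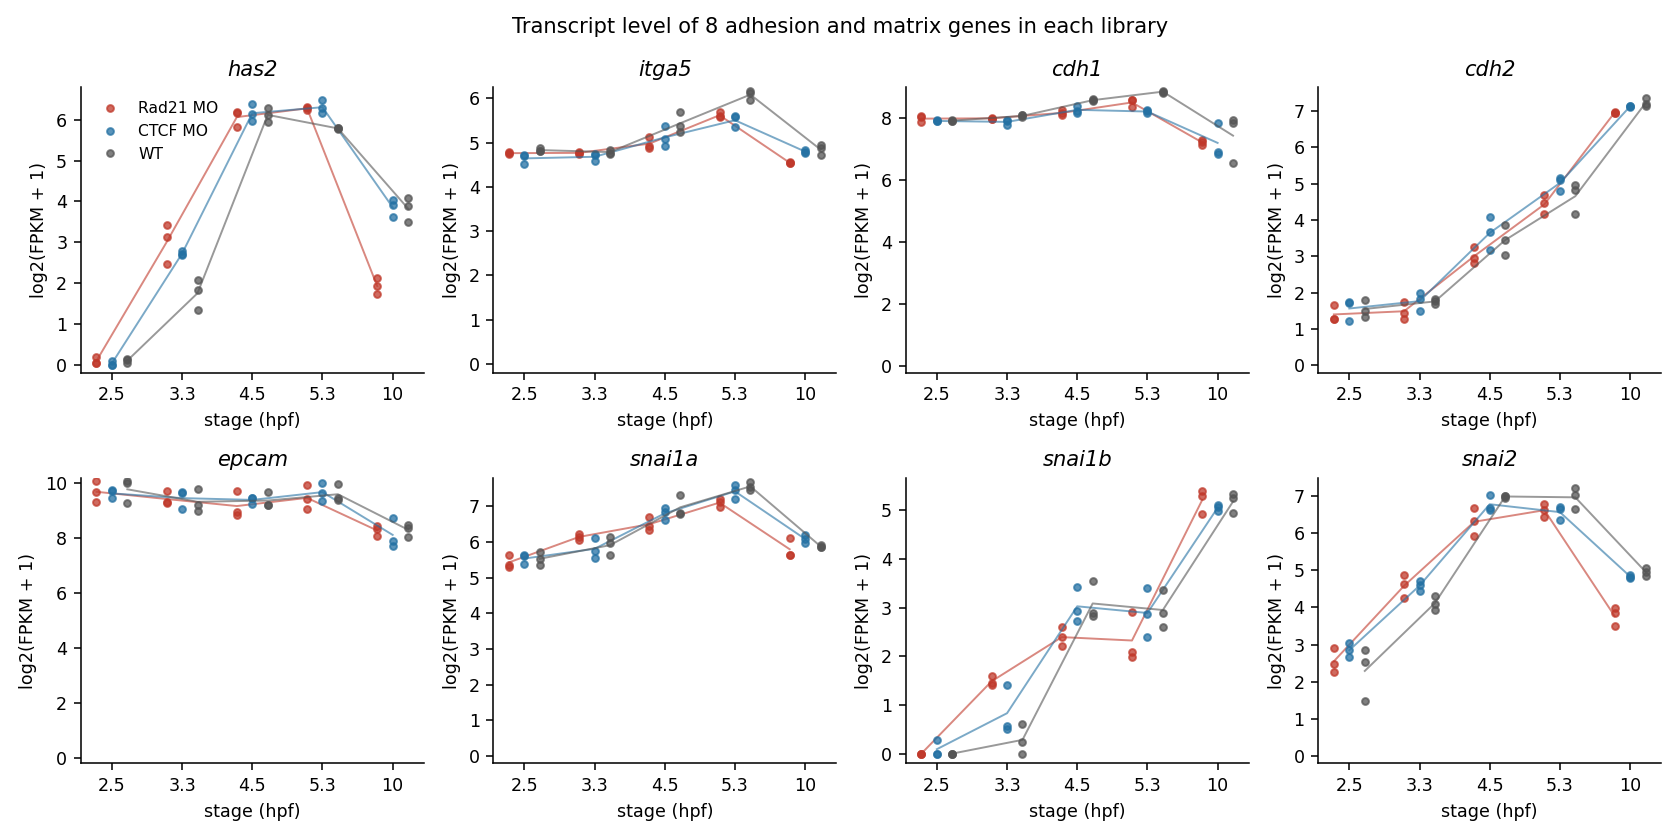
Level of each gene as log2(FPKM + 1) (vertical axis) at each stage in hpf (horizontal axis); points are libraries and lines join the means of the 3 libraries of Rad21 MO, CTCF MO and WT embryos. The has2 and snai2 courses reach their top at 4.5 to 5.3 hpf and part at 10 hpf, where the Rad21 MO libraries lie lowest, while cdh2 and snai1b are highest at 10 hpf in every state.

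Set against WT of the same stage, none of the 8 genes was called at 2.5 or 3.3 hpf. At 2.5 hpf has2 and snai1b were too low to be tested, and none of the other 6 was called in Rad21 MO or CTCF MO embryos, where 0% of all genes were called in either comparison. Before adjustment limma gave a p under 0.05 for 544 genes in Rad21 MO embryos, none of them a member, and for 1140 genes in CTCF MO embryos, 1 of them a member (itga5). At 3.3 hpf none of 8 was called in Rad21 MO embryos (0.171% of all genes called) or in CTCF MO embryos (0.0569%). There 3 members had an unadjusted p under 0.05 in limma for Rad21 MO (has2, snai1b and snai2), as did 1116 of 14051 genes. For CTCF MO 3 members had such a p (has2, cdh1 and snai2), as did 1566 of 14051 genes. At 4.5 hpf 2 of 8 were lower in Rad21 MO embryos, where 20.6% of all genes were called, and none of 8 in CTCF MO embryos, where 0.00671% were. In CTCF MO embryos of that stage 1 member (cdh1) had an unadjusted p under 0.05 in limma, as did 2268 of 14902 genes. At 5.3 hpf 4 of 8 were called in Rad21 MO embryos (22.1% of all genes) and 3 of 8 in CTCF MO embryos (8.95%). By 10 hpf 2 of 8 were lower in Rad21 MO embryos (3.23%) and none of 8 was called in CTCF MO embryos (0.0182%), where no member had an unadjusted p under 0.05. Over the members tested, the median change in Rad21 MO embryos was -0.45 at 4.5 hpf, -0.35 at 5.3 hpf and -0.24 at 10 hpf, beside medians of -0.07, -0.03 and 0.02 over all genes. The 2 morpholino comparisons of a stage share their WT libraries, so their values stand side by side here and their likeness is not counted as a result.

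**Figure D2:**
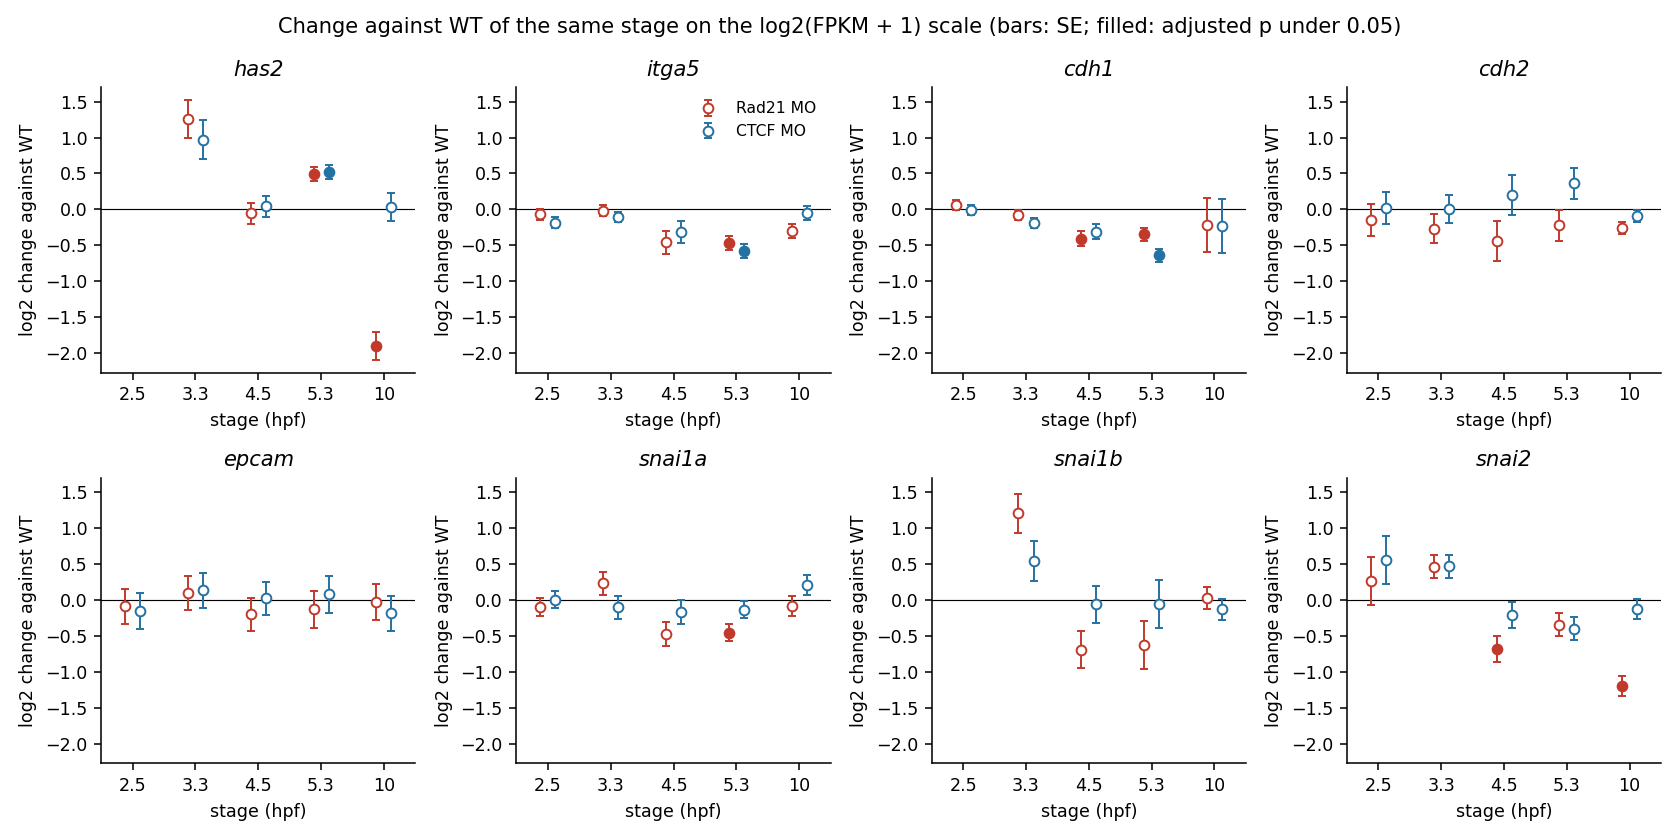
Change against WT of the same stage on the log2(FPKM + 1) scale (vertical axis) by stage in hpf (horizontal axis) for Rad21 MO and CTCF MO embryos; bars are SE from limma, and filled points have an adjusted p under 0.05. The has2 change in Rad21 MO embryos lies at 0.49 at 5.3 hpf and at -1.90 at 10 hpf, while in CTCF MO embryos it lies at 0.52 and at 0.03.

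The hyaluronan synthase gene has2 was almost absent at 2.5 hpf, at most 0.132 FPKM in Rad21 MO, 0.0632 in CTCF MO and 0.0923 in WT libraries, with 2 CTCF MO libraries listed at 0. At 3.3 hpf it read 9.69, 4.49 and 7.81 FPKM in Rad21 MO, 5.54, 5.89 and 5.39 in CTCF MO, and 1.55, 2.57 and 3.20 in WT embryos. All 6 morpholino libraries were above the 3 WT libraries at this stage. The change of 1.25 ± 0.27 (log2, SE) in Rad21 MO embryos had an adjusted p of 0.130 and that of 0.97 ± 0.27 in CTCF MO embryos an adjusted p of 0.254, so neither passed. When all 45 libraries shared 1 estimate of spread, has2 was called at 3.3 hpf both with the Rad21 morpholino (adjusted p = 0.000182) and with the CTCF morpholino (adjusted p = 0.00524). The authors' deposited table lists has2 at 3.3 hpf with a log2 ratio of 1.64 for Rad21 MO over WT and of 1.20 for CTCF MO over WT.

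Summed levels of markers of early tissues, which were not tested as sums, were higher in Rad21 MO than in WT libraries at the same stage. The summed FPKM of 9 deep-cell mesendoderm markers at 3.3 hpf was 42.6 to 58.9 in Rad21 MO, 34.6 to 44.7 in CTCF MO and 15.4 to 25.5 in WT libraries. Genes of the enveloping layer, the outer epithelium of the embryo, summed to 97.5 to 160.3 in Rad21 MO, 91.8 to 111 in CTCF MO and 39.5 to 72.2 in WT libraries (11 genes, of which cyt1l and zgc:165571 are listed at 0 in all of them). Neural plate markers (8 genes) summed to 84.9 to 121 in Rad21 MO, 68.6 to 93.2 in CTCF MO and 52.2 to 73.1 in WT libraries. Markers of the yolk syncytial layer (9 genes) summed to 55.9 to 74.4 in Rad21 MO, 50.8 to 61.7 in CTCF MO and 43.6 to 54.7 in WT libraries. In both of these lists the CTCF MO and WT sums overlapped. Of 7 mesendoderm markers tested 1 was higher in Rad21 MO embryos (chd) and none in CTCF MO embryos, and none of 8 enveloping layer markers tested was called in either. The part of these differences in the has2 values was not tested.

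At 4.5 hpf the groups had drawn level, has2 reading 56.0, 72.8 and 71.0 FPKM in Rad21 MO, 82.8, 69.5 and 61.5 in CTCF MO and 68.8, 61.1 and 77.3 in WT embryos. All 3 groups overlapped, and the changes were -0.06 ± 0.15 (adjusted p = 0.830) in Rad21 MO and 0.04 ± 0.15 (adjusted p = 0.922) in CTCF MO embryos. At 5.3 hpf the values were 78.8, 74.2 and 78.0 FPKM in Rad21 MO, 77.9, 88.1 and 70.5 in CTCF MO and 54.5, 54.6 and 54.2 in WT embryos. Every morpholino library exceeded every WT library. The gene was higher by 0.49 ± 0.10 for Rad21 MO (adjusted p = 0.00734) and by 0.52 ± 0.10 for CTCF MO embryos (adjusted p = 0.0136). The Rad21 MO call held in all 12 alternatives. That in CTCF MO embryos was not kept without library 1 of CTCF MO, with a change of 0.44 and an adjusted p at the threshold.

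At 10 hpf has2 had the largest change against WT of the 8 genes. It stood at 2.31, 3.39 and 2.78 FPKM in Rad21 MO embryos, against 10.4, 13.8 and 15.9 FPKM in WT embryos. In CTCF MO embryos it read 11.3, 15.5 and 14.0 FPKM. The 3 Rad21 MO libraries lay below all 6 others, and the CTCF MO and WT libraries overlapped. Mean has2 was 4.73-fold lower in Rad21 MO embryos (2.83 ± 0.54 FPKM) than in WT (13.4 ± 2.79 FPKM; SD, n = 3 each), a change of -1.90 ± 0.19 on the log2(FPKM + 1) scale (adjusted p = 0.00473). This was the fall of rank 10 in size among 402 genes called lower. In CTCF MO embryos the change was 0.03 ± 0.19 (adjusted p = 0.999).

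The difference also stood between the morpholinos: has2 was lower in Rad21 MO than in CTCF MO embryos by -1.93 ± 0.19 at 10 hpf (adjusted p = 0.00429), in a fit whose spread was estimated from the WT libraries too. Seen over time, mean has2 at 10 hpf was 27.2-fold below that at 5.3 hpf in Rad21 MO, 5.79-fold in CTCF MO and 4.07-fold in WT embryos. The Rad21 MO effect at 10 hpf minus that at 5.3 hpf was -2.39 ± 0.25 (adjusted p = 4.69e-08), in a test that called 14.1% of all genes. Some markers of other tissues also differed at 10 hpf, where 3.23% of all genes were called in Rad21 MO embryos. The 9 mesendoderm markers summed to 98.7 to 109 FPKM in Rad21 MO, 139 to 159 in CTCF MO and 122 to 138 in WT libraries, with tbx16 at 14.0 ± 1.03 FPKM in Rad21 MO and 24.4 ± 2.07 in WT (log2 change -0.76 ± 0.11, adjusted p = 0.0131). Of the 8 tested 1 was lower (tbx16) and 1 higher (gsc, 5.75 ± 1.13 FPKM in Rad21 MO and 1.86 ± 0.66 in WT). Markers of the neural plate (8 genes) summed to 490 to 559 FPKM in Rad21 MO, 527 to 685 in CTCF MO and 541 to 678 in WT libraries, ranges that overlapped. Of them 1 was called, sox3, which stood at 119 ± 5.14 FPKM in Rad21 MO and 178 ± 14.1 in WT embryos (adjusted p = 0.0191). Enveloping layer genes (11 genes) summed to 11571 to 13889 FPKM in Rad21 MO, 8075 to 11476 in CTCF MO and 8545 to 11888 in WT libraries. The part of these markers in the has2 difference was not tested.

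**Figure D3:**
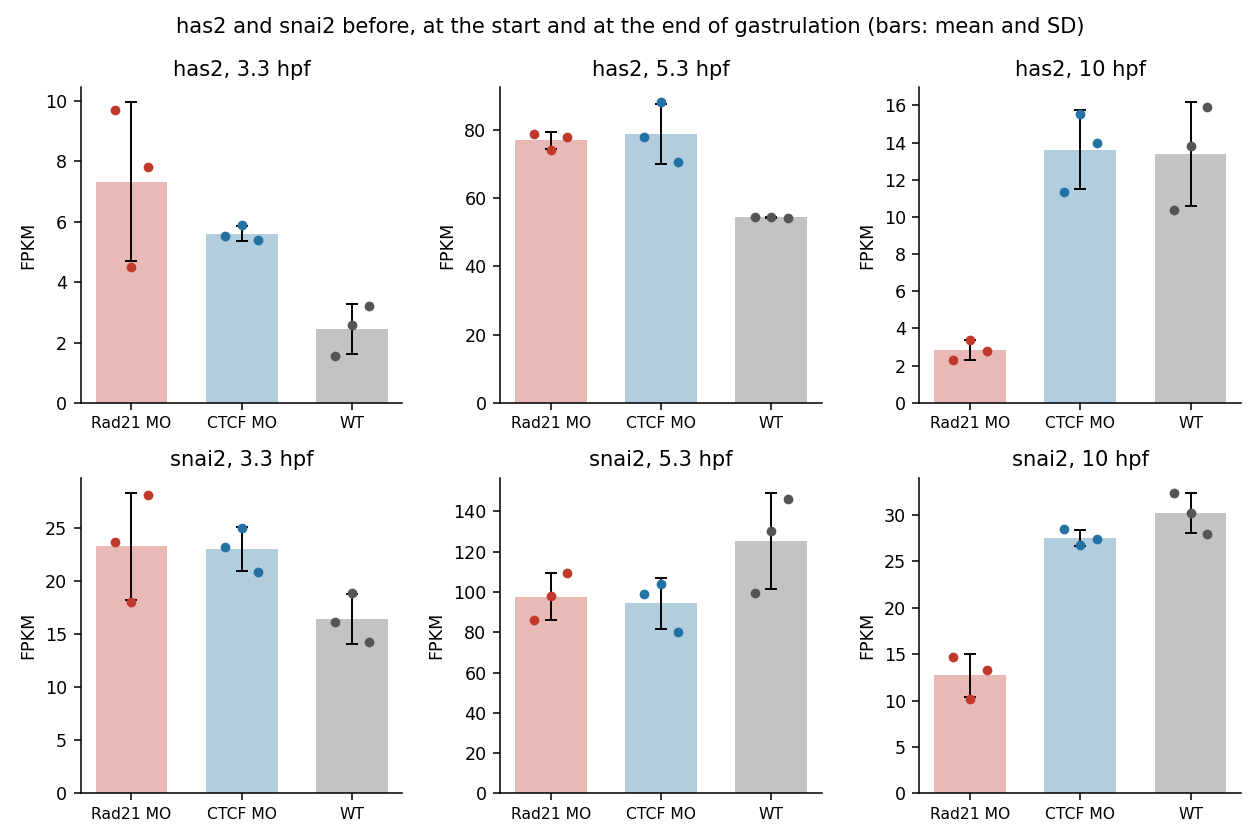
FPKM of has2 (top) and snai2 (bottom) at 3.3, 5.3 and 10 hpf in Rad21 MO, CTCF MO and WT embryos; bars are means, lines SD and points the 3 libraries. At 10 hpf the Rad21 MO libraries hold 2.31 to 3.39 FPKM of has2 and 10.2 to 14.7 FPKM of snai2, below every CTCF MO and WT library.

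The repressor gene snai2 shared this fall at 10 hpf. It read 14.7, 10.2 and 13.3 FPKM in Rad21 MO, against 32.3, 30.2 and 28.0 FPKM in WT embryos, and 28.5, 26.7 and 27.4 FPKM in CTCF MO embryos. All Rad21 MO libraries lay below all others. The change was -1.19 ± 0.14 against WT (adjusted p = 0.00569) and -1.07 ± 0.14 against CTCF MO (adjusted p = 0.00782), both kept in all 12 alternatives. In CTCF MO embryos the change against WT was -0.13 ± 0.14 (adjusted p = 0.999). These 2 genes were the only members called between the morpholinos at 10 hpf, 2 of 8 against 3.38% of all genes.

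Earlier, the snai2 changes in Rad21 MO embryos were smaller in size, but the difference between stages was not called. The Rad21 MO effect at 10 hpf minus that at 5.3 hpf was -0.85 ± 0.32 (limma, adjusted p = 0.0719), in a test that called 14.1% of all genes. It was called with a common sum (adjusted p = 0.0264) and under quantile normalization (adjusted p = 0.00883). At 4.5 hpf snai2 read 59.2, 79.1 and 102 FPKM in Rad21 MO, 129, 101 and 98.5 in CTCF MO, and 127, 123 and 127 in WT embryos. All Rad21 MO libraries were below WT, and the gene was lower by -0.68 ± 0.18 (adjusted p = 0.0290). This call was lost in 8 of 12 alternatives, among them the common sum (-0.37, adjusted p = 0.230) and leaving out any WT library or Rad21 MO library 0 or 1 (adjusted p between 0.0582 and 0.0849). At 5.3 hpf it read 86.0, 97.9 and 109 FPKM in Rad21 MO, 99.2, 104 and 80.1 in CTCF MO and 99.6, 130.4 and 146 in WT embryos. The change of -0.35 ± 0.16 in Rad21 MO embryos (adjusted p = 0.156) did not pass, nor did that of -0.40 ± 0.16 in CTCF MO embryos (adjusted p = 0.154). At 3.3 hpf snai2 was at 23.3 ± 5.04 FPKM in Rad21 MO, 23.1 ± 2.05 in CTCF MO and 16.4 ± 2.32 in WT embryos (SD, n = 3 each), with a change of 0.46 ± 0.16 in Rad21 MO (adjusted p = 0.422) and of 0.47 ± 0.16 in CTCF MO embryos (adjusted p = 0.343). At 2.5 hpf it was low in all, 1.79 to 7.20 FPKM over the 9 libraries.

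The second Snail gene, snai1a, had the highest FPKM of the family at 2.5 and 3.3 hpf in every group. It stood at 146, 137 and 126 FPKM in Rad21 MO, 191, 145 and 176 in CTCF MO and 203, 185 and 173 in WT embryos at 5.3 hpf. The Rad21 MO libraries lay below all WT libraries, and the change was -0.45 ± 0.12 (adjusted p = 0.0240). It was not called without WT library 0 or 1 or Rad21 MO library 1 or 2 (adjusted p between 0.0581 and 0.0870) nor under the common sum (adjusted p = 0.690) or quantile normalization (adjusted p = 0.284). In CTCF MO embryos of that stage the change was -0.14 ± 0.12 (adjusted p = 0.508). At 4.5 hpf snai1a read 86.5, 102 and 80.0 FPKM in Rad21 MO embryos, against 111, 158 and 108 FPKM in WT embryos, with a change of -0.47 ± 0.17 that did not pass (adjusted p = 0.0722). By 10 hpf the groups were close, 55.1 ± 11.2 FPKM in Rad21 MO, 66.8 ± 5.62 in CTCF MO and 57.6 ± 1.56 in WT embryos (SD, n = 3 each), and no change was called.

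The third gene, snai1b, was nearly silent at 2.5 hpf, where 8 of 9 libraries listed it at 0. At 3.3 hpf it read 1.66, 1.75 and 2.003 FPKM in Rad21 MO, 0.485, 1.66 and 0.425 in CTCF MO and 0.182, 0.521 and 0 in WT embryos. All 3 Rad21 MO libraries were above WT, with CTCF MO library 1 close to them, but the change of 1.20 ± 0.28 did not pass (adjusted p = 0.159). It was called when all 45 libraries shared 1 spread (adjusted p = 0.0157). At 4.5 hpf snai1b was at 4.29 ± 0.72 FPKM in Rad21 MO, 7.34 ± 2.18 in CTCF MO and 7.72 ± 2.55 in WT embryos, and at 5.3 hpf at 4.23 ± 1.97 FPKM in Rad21 MO, 6.72 ± 2.66 in CTCF MO and 6.93 ± 2.19 in WT embryos (SD, n = 3 each). None of these differences was called, the smallest adjusted p being 0.0838 for Rad21 MO at 4.5 hpf. At 10 hpf it reached 38.5, 41.2 and 29.5 FPKM in Rad21 MO, 33.6, 32.5 and 30.5 in CTCF MO and 39.4, 37.2 and 30.0 in WT embryos, groups that overlapped fully (Rad21 MO change 0.03 ± 0.15, adjusted p = 0.944).

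The summed FPKM of the 3 Snail genes was 238 ± 3.42 in Rad21 MO, 272 ± 24.9 in CTCF MO and 320 ± 9.13 in WT embryos at 5.3 hpf, and it was 104 ± 14.1 in Rad21 MO, 127 ± 3.59 in CTCF MO and 123 ± 8.43 in WT embryos at 10 hpf (SD, n = 3 each; sums not tested). At 10 hpf snai2 made up 12.5 ± 3.43% of the sum in Rad21 MO, 21.8 ± 1.13% in CTCF MO and 24.5 ± 0.18% in WT embryos. The share of snai1b was 34.9 ± 2.84% in Rad21 MO, 25.5 ± 1.95% in CTCF MO and 28.7 ± 2.17% in WT embryos. At 5.3 hpf the share of snai2 was 41.0 ± 4.61% in Rad21 MO, 34.9 ± 5.46% in CTCF MO and 39.2 ± 6.46% in WT embryos, with overlapping libraries.

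**Figure D4:**
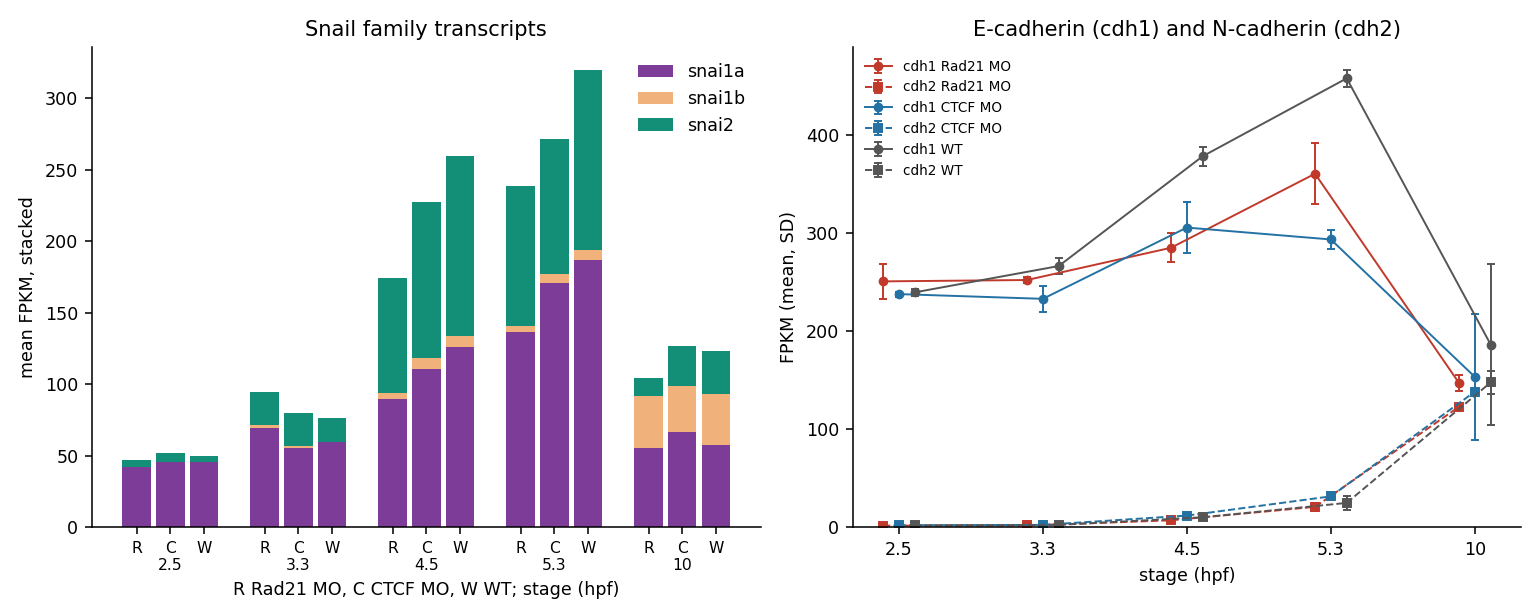
Left, mean FPKM of snai1a, snai1b and snai2 stacked for Rad21 MO (R), CTCF MO (C) and WT (W) embryos at each stage in hpf; right, mean FPKM with SD (n = 3) of cdh1 (solid lines) and cdh2 (dashed lines) by stage. Among the bars of 10 hpf the snai2 part of the stack is smallest in Rad21 MO embryos, and cdh1 parts between WT and the morpholino groups at 4.5 and 5.3 hpf.

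E-cadherin was already abundant at 2.5 hpf, with cdh1 at 230.1 to 263 FPKM in Rad21 MO, 236 to 241 in CTCF MO and 236 to 243 in WT libraries. At 3.3 hpf it stood at 252 ± 3.46 FPKM in Rad21 MO, 233 ± 13.1 in CTCF MO and 266 ± 7.79 in WT embryos (SD, n = 3 each), and neither morpholino group was called. At 4.5 hpf it read 283, 300.4 and 271 FPKM in Rad21 MO, 284, 334 and 298 in CTCF MO and 367, 386 and 382 in WT embryos. All 6 morpholino libraries lay below WT. In Rad21 MO embryos the gene was lower by -0.41 ± 0.10 (adjusted p = 0.0224), and the change of -0.31 ± 0.10 in CTCF MO embryos did not pass (adjusted p = 0.225).

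At 5.3 hpf both morpholino groups were called lower. The cdh1 level was 379, 325 and 378 FPKM in Rad21 MO, 303, 283 and 294 in CTCF MO and 459, 465 and 449 in WT embryos, with no overlap between the 3 groups. The gene was lower by -0.35 ± 0.09 for Rad21 MO (adjusted p = 0.0231) and by -0.64 ± 0.09 for CTCF MO embryos (adjusted p = 0.00471). Rad21 MO stood above CTCF MO by 0.29 ± 0.09, which did not pass (adjusted p = 0.0984). With other scalings the Rad21 MO calls were lost. Under quantile normalization the cdh1 change was 0.09 at 4.5 hpf (adjusted p = 0.528) and 0.01 at 5.3 hpf (adjusted p = 0.968), and with a common sum it was -0.09 at 4.5 hpf (adjusted p = 0.771) and 0.01 at 5.3 hpf (adjusted p = 0.951). A common sum moved the median change of all genes to 0.19 at 4.5 hpf and 0.26 at 5.3 hpf in Rad21 MO embryos, and relative to that median cdh1 stood at -0.28 and -0.25. The 4.5 hpf call was also lost without WT library 1 or 2 or Rad21 MO library 0 or 2 (adjusted p between 0.0646 and 0.0754). At 5.3 hpf it was lost without WT library 0 or 1 or Rad21 MO library 1 (adjusted p between 0.0646 and 0.0766). A fit of all 45 libraries called neither (adjusted p = 0.150 at 4.5 hpf and 0.243 at 5.3 hpf), so that the Rad21 MO call was lost in 7 of 12 alternatives at 4.5 hpf and 6 of 12 at 5.3 hpf. In CTCF MO embryos the call at 5.3 hpf was lost under quantile normalization alone (-0.37, adjusted p = 0.0701).

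At 10 hpf cdh1 read 155, 139 and 147 FPKM in Rad21 MO, 113, 227 and 119 in CTCF MO and 91.5, 241 and 226 in WT embryos. The CTCF MO and WT libraries stood far apart within their groups, while the Rad21 MO libraries lay close together. The high libraries were CTCF MO library 1 and WT libraries 1 and 2. Changes of -0.22 ± 0.37 for Rad21 MO (adjusted p = 0.807) and -0.23 ± 0.37 for CTCF MO embryos (adjusted p = 0.999) were not called. Without WT library 0 the change was -0.66 for Rad21 MO (adjusted p = 0.214) and -0.68 for CTCF MO embryos (adjusted p = 0.574), and without WT library 1 it was 0.03 for Rad21 MO and 0.01 for CTCF MO embryos.

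N-cadherin was scarce early, with cdh2 between 1.35 and 2.99 FPKM in the 18 libraries of 2.5 and 3.3 hpf. It stood at 7.09 ± 1.28 FPKM in Rad21 MO, 11.9 ± 3.97 in CTCF MO and 10.2 ± 3.22 in WT embryos at 4.5 hpf, and at 20.8 ± 3.87 FPKM in Rad21 MO, 31.5 ± 4.15 in CTCF MO and 24.8 ± 6.93 in WT embryos at 5.3 hpf (SD, n = 3 each). At 10 hpf it reached 125, 121 and 123 FPKM in Rad21 MO, 136, 138 and 140.2 in CTCF MO and 138, 144 and 161 in WT embryos. The Rad21 MO libraries were the 3 lowest, but the change of -0.26 ± 0.09 did not pass (adjusted p = 0.150), and none of its other changes against WT did. The cdh2 level was 0.68 ± 0.23% of the cdh1 level in Rad21 MO, 0.84 ± 0.23% in CTCF MO and 0.82 ± 0.20% in WT embryos at 2.5 hpf. At 10 hpf it was 83.7 ± 3.31% in Rad21 MO, 99.7 ± 33.7% in CTCF MO and 93.9 ± 49.6% in WT embryos, with the wide cdh1 spread of CTCF MO and WT libraries in its divisor.

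EpCAM had the highest FPKM of the 8 genes in every group. It ran from 459 FPKM in a Rad21 MO library of 4.5 hpf to 1069.5 FPKM in a Rad21 MO library of 2.5 hpf over the 36 libraries up to 5.3 hpf. At 10 hpf epcam read 340.3, 318 and 268 FPKM in Rad21 MO, 209, 423 and 235 in CTCF MO and 329.9, 356 and 262 in WT embryos. No morpholino comparison of epcam was called at any stage, the largest change against WT being -0.20 ± 0.23 in Rad21 MO embryos at 4.5 hpf (adjusted p = 0.573).

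Integrin α5 was level early, itga5 lying between 21.9 and 28.5 FPKM in the 18 libraries of 2.5 and 3.3 hpf. At 4.5 hpf it read 28.4, 33.9 and 29.5 FPKM in Rad21 MO, 29.2, 40.3 and 32.7 in CTCF MO and 37.1, 50.4 and 40.7 in WT embryos. The Rad21 MO libraries lay below WT without overlap, and the changes of -0.46 ± 0.16 for Rad21 MO (adjusted p = 0.0621) and -0.32 ± 0.16 for CTCF MO embryos (adjusted p = 0.362) did not pass. At 5.3 hpf it read 46.6, 50.4 and 47.6 FPKM in Rad21 MO, 39.8, 46.7 and 47.3 in CTCF MO and 71.0, 69.1 and 61.1 in WT embryos. All 6 morpholino libraries were below WT, and the gene was lower by -0.47 ± 0.10 for Rad21 MO (adjusted p = 0.0118) and by -0.58 ± 0.10 for CTCF MO embryos (adjusted p = 0.0114). With a common sum the change was -0.11 for Rad21 MO (adjusted p = 0.591) and -0.32 for CTCF MO embryos (adjusted p = 0.135), which is -0.37 and -0.54 relative to the median of all genes. Under quantile normalization the Rad21 MO change was -0.32 (adjusted p = 0.0562).

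At 10 hpf itga5 stood at 22.7, 22.2 and 22.2 FPKM in Rad21 MO, 27.5, 26.3 and 26.7 in CTCF MO and 25.2, 29.9 and 28.3 in WT embryos. Rad21 MO libraries were again the 3 lowest, with a change of -0.30 ± 0.10 that did not pass (adjusted p = 0.146), and the change in CTCF MO embryos was -0.05 ± 0.10 (adjusted p = 0.999). The CTCF MO effect on itga5 at 10 hpf minus that at 5.3 hpf was 0.53 ± 0.14 (adjusted p = 0.0180), in a test that called 4.42% of all genes. That call was lost in 5 of 17 alternatives: with a common sum (0.32, adjusted p = 0.391), under quantile normalization (0.38, adjusted p = 0.0946) and without WT library 0 of 5.3 hpf, WT library 0 of 10 hpf or CTCF MO library 0 of 5.3 hpf (adjusted p = 0.0539, 0.0510 and 0.0736).

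No other difference between stages or between morpholinos was called for the 8 genes. Between 5.3 and 4.5 hpf the Rad21 MO effects differed in none of 8 (0.0792% of all genes called) and the CTCF MO effects in none of 8 (0.0106%). In those limma tests 1244 genes had an unadjusted p under 0.05 for Rad21 MO, has2 among them, and 1394 for CTCF MO, with no member among them. Rad21 MO against CTCF MO gave none of 6 tested at 2.5 hpf (0% of all genes called, 766 with an unadjusted p under 0.05), none of 8 at 3.3 hpf (0.0427%), none at 4.5 hpf (2.76%) and none at 5.3 hpf (4.5%). The members with an unadjusted p under 0.05 there numbered 0 at 2.5 hpf, 1 at 3.3 hpf and 3 at both 4.5 and 5.3 hpf, cdh2 among them at both with a change of -0.64 ± 0.28 and of -0.59 ± 0.22. Over all genes limma gave such a p for 1334 of 14051 at 3.3 hpf, 3357 of 14902 at 4.5 hpf and 3236 of 15214 at 5.3 hpf.

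**Figure D5:**
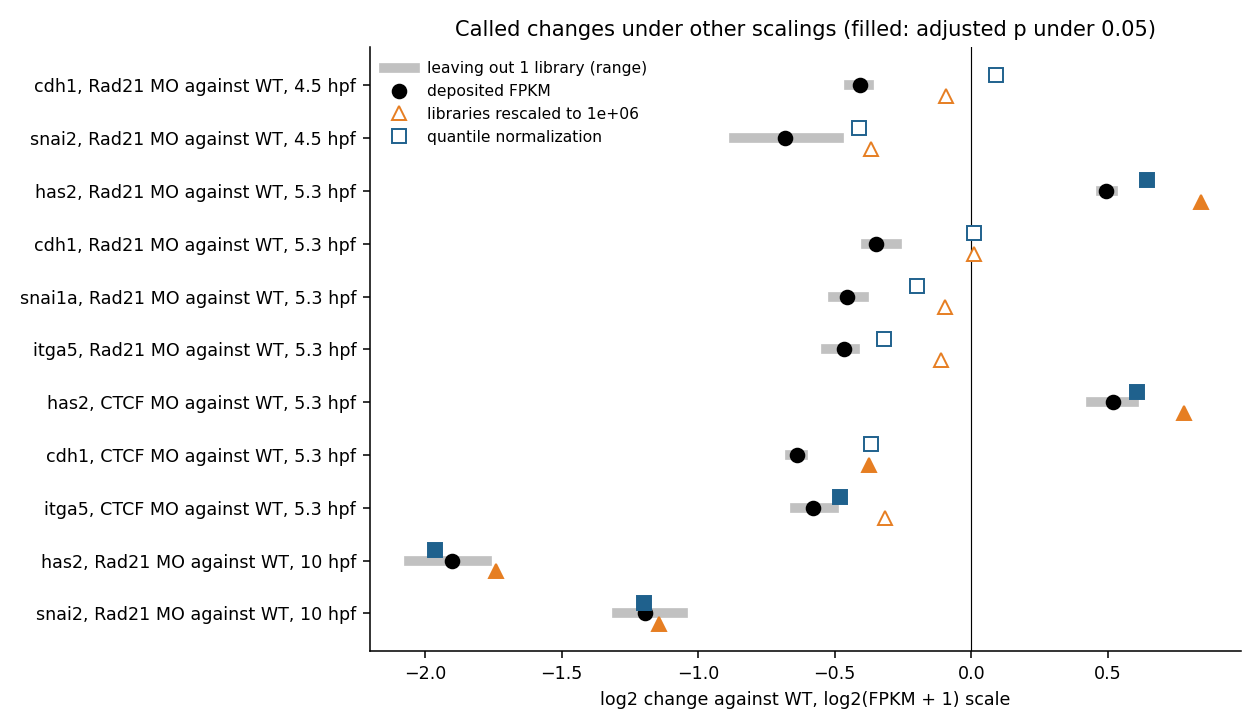
The 11 changes called against WT on the log2(FPKM + 1) scale (horizontal axis), each on its own line, with the deposited FPKM, with libraries rescaled to 1e+06 and with quantile normalization; grey bars span the values when 1 library is left out, and filled points have an adjusted p under 0.05. The has2 and snai2 points at 10 hpf stay filled between -1.97 and -1.14, while both other scalings of cdh1 in Rad21 MO embryos are open and lie near 0.

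Maternal RNA also differed between the groups at 4.5 and 5.3 hpf. Markers of oocyte and egg (9 genes, of which h1m is listed at 0 throughout) summed to 1132 to 1748 FPKM in Rad21 MO, 649 to 992 in CTCF MO and 430.1 to 585 in WT libraries at 4.5 hpf. At 5.3 hpf they summed to 730.2 to 822 in Rad21 MO, 407 to 565 in CTCF MO and 266 to 378 in WT libraries. At 10 hpf the sums were 18.6 to 20.5 in Rad21 MO, 13.5 to 29.0 in CTCF MO and 18.5 to 26.5 in WT libraries. Of 8 tested, 4 were higher in Rad21 MO embryos at 4.5 hpf (20.6% of all genes called) and 4 higher and 1 lower at 5.3 hpf (22.1%), and 3 were higher in CTCF MO embryos at 5.3 hpf (8.95%). Their part in the calls of the 8 genes was not tested. Markers of ovarian somatic cells (6 genes) summed to at most 1.07 FPKM in any library.

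Genes that work with the 8 were counted from lists, each count to be read against the share of all genes called in either direction. The lists were counted with the deposited FPKM only, and lower calls depended on scaling. With a common sum, genes called lower in Rad21 MO embryos went from 1501 to 74 at 4.5 hpf and from 1506 to 108 at 5.3 hpf. In CTCF MO embryos at 5.3 hpf they went from 589 to 89. Quantile normalization left 705, 959 and 326. Whether the list genes below kept their calls was not tested. Of 11 tested partners of the cadherins, the catenins and polarity proteins, 4 were lower and none higher in Rad21 MO embryos at 4.5 hpf (20.6% of all genes called), and again 4 and none at 5.3 hpf (22.1%). β-catenin (ctnnb1), which links cadherins to actin, stood at 160.2 ± 14.3 FPKM in Rad21 MO and 242 ± 20.9 in WT embryos at 4.5 hpf (log2 change -0.60 ± 0.12, adjusted p = 0.0104). In CTCF MO embryos 2 of 11 were lower at 5.3 hpf (8.95% of all genes called), p120-catenin (ctnnd1), which keeps cadherins at the surface, being at 57.7 ± 3.72 against 74.0 ± 4.31 FPKM in WT (adjusted p = 0.0394). The median change of the list in Rad21 MO embryos was -0.44 at 4.5 hpf and -0.28 at 5.3 hpf, beside -0.07 and -0.03 over all genes.

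Of 8 other integrin genes tested at 5.3 hpf 2 were called in Rad21 MO embryos, near the 22.1% of all genes. Of these itgb1b, a β1 chain of the kind that pairs with α5, was lower, at 107 ± 6.88 FPKM in Rad21 MO embryos against 157 ± 6.36 in WT (log2 change -0.55 ± 0.09, adjusted p = 0.00345). The other, itgb5, was higher, at 60.6 ± 5.15 FPKM in Rad21 MO embryos against 36.9 ± 5.17 in WT (log2 change 0.71 ± 0.12, limma, adjusted p = 0.00395). None of the 8 was called in CTCF MO embryos, where 3 had an unadjusted p under 0.05 in limma, as did 3916 of 15214 genes. Among 12 cytoplasmic partners of integrins, 3 were lower for Rad21 MO embryos at 5.3 hpf, near the 22.1% of all genes called, and 2 for CTCF MO embryos, where 8.95% were called. Talin (tln1), which switches integrins on, was at 6.88 ± 0.18 FPKM in Rad21 MO, 7.91 ± 0.26 in CTCF MO and 11.7 ± 1.26 in WT embryos, with an adjusted p of 0.0068 for Rad21 MO and of 0.0419 for CTCF MO. Of 6 fibronectin, laminin and basement membrane genes none was called at 5.3 hpf, and the number with an unadjusted p under 0.05 was 1 for Rad21 MO and 0 for CTCF MO embryos. Over all genes limma gave such a p for 5426 of 15214 in Rad21 MO embryos.

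Around has2, 5 genes of hyaluronan synthesis and turnover were tested at 5.3 hpf, and 2 were higher and 1 lower in each morpholino group, where 22.1% (Rad21 MO) and 8.95% (CTCF MO) of all genes were called. The precursor enzyme gene ugp2b stood at 60.1 ± 8.28 FPKM in Rad21 MO and 24.3 ± 2.48 in WT embryos (log2 change 1.27 ± 0.17, adjusted p = 0.00166). The precursor enzyme gene ugdh was lower in CTCF MO embryos, at 53.8 ± 1.02 against 78.1 ± 3.71 FPKM in WT (adjusted p = 0.0133). The hyaluronan-binding gene hmmr, which also acts at the mitotic spindle, was at 47.6 ± 4.96 FPKM in Rad21 MO, 71.8 ± 6.59 in CTCF MO and 27.4 ± 3.18 in WT embryos, with an adjusted p of 0.00317 for Rad21 MO and of 0.000786 for CTCF MO. In WT embryos hmmr fell from 101 ± 9.41 FPKM at 3.3 hpf to 29.7 ± 1.54 at 4.5 hpf. The ugp2b level fell from 39.9 ± 4.30 FPKM at 4.5 hpf to 24.3 ± 2.48 at 5.3 hpf. Unlike these 2, ugdh rose from 45.3 ± 4.13 FPKM at 3.3 hpf to 69.1 ± 9.59 at 4.5 hpf, a step in which has2 rose too. The part of these courses in the calls was not tested. At 10 hpf none of 8 hyaluronan genes tested was called in Rad21 MO embryos (3.23% of all genes called). There 1 had an unadjusted p under 0.05 in limma, as did 3067 of 16485 genes.

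In the EpCAM and matriptase pathway 2 of 7 genes were lower and 1 higher in Rad21 MO embryos at 5.3 hpf (22.1% of all genes called), and 3 lower and 1 higher in CTCF MO embryos (8.95%). The higher gene was prkcda in both groups, at 31.2 ± 6.14 FPKM in Rad21 MO, 29.5 ± 1.40 in CTCF MO and 11.2 ± 2.50 in WT embryos. Its log2 change was 1.41 ± 0.17 for Rad21 MO (limma, adjusted p = 0.00128) and 1.34 ± 0.17 for CTCF MO (adjusted p = 0.00362). The matriptase inhibitor gene spint1a was lower, at 70.8 ± 1.10 FPKM in Rad21 MO and 91.8 ± 4.90 in WT embryos (adjusted p = 0.0141). Of 36 tested genes of gastrulation cell movement 3 were higher and 4 lower in Rad21 MO embryos at 5.3 hpf, a share below the 22.1% of all genes called. None was called in CTCF MO embryos (8.95%), where 8 had an unadjusted p under 0.05 in limma, as did 3916 of 15214 genes.

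At 10 hpf 3 of these lists held 1 called gene each in Rad21 MO embryos, where 3.23% of all genes were called, and these single calls say nothing particular of the lists. In Rad21 MO embryos 1 of 15 other integrin genes was lower, itga9, at 6.57 ± 1.95 against 17.7 ± 4.39 FPKM in WT (log2 change -1.31 ± 0.22, adjusted p = 0.0222). Of 10 other transcription factors of epithelial-mesenchymal transition 1 was lower, twist1b, at 1.95 ± 0.22 against 5.66 ± 0.64 FPKM in WT (log2 change -1.17 ± 0.17, adjusted p = 0.0119). Of 40 cell movement genes 1 was lower, flrt3, a membrane protein gene, at 88.9 ± 2.90 against 118 ± 4.37 FPKM in WT (adjusted p = 0.0376). No gene of these lists was called by limma in CTCF MO embryos at 10 hpf, where between 0 and 1 gene of each list had an unadjusted p under 0.05. Of all 16485 genes tested there, 641 had such a p.

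Ordered by mean level over the 15 groups of state and stage, has2 was highest in CTCF MO and Rad21 MO embryos at 5.3 hpf, whose libraries overlapped each other and those of CTCF MO and WT at 4.5 hpf. WT at 5.3 hpf came after all 3 groups of 4.5 hpf and apart from them. Rad21 MO at 10 hpf (2.83 FPKM) stood beside WT at 3.3 hpf (2.44 FPKM), with overlapping libraries. The order for snai2 was led by WT at 4.5 and 5.3 hpf, which overlapped, and Rad21 MO at 10 hpf came 12 of 15, overlapping WT at 3.3 hpf. Both cdh1 and itga5 were highest in WT at 5.3 hpf, apart from every other group, while itga5 was lowest in Rad21 MO at 10 hpf. For cdh2 the top was WT at 10 hpf, overlapping CTCF MO, with Rad21 MO at 10 hpf next and apart from both.

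Over the 15 group means, the genes whose level ran most like that of each member were found among 10334 genes, as a Pearson r of log2(mean FPKM + 1) given without a test, since all points share their libraries and the course of development. For has2 these were snai2 (0.987), flh (0.983) and lrwd1 (0.983), and for snai2 lrwd1 (0.988), depdc7 (0.988) and has2 (0.987). For cdh1 they were ccnt2b (0.980), calm1a (0.978) and ing5b (0.978), and for cdh2 tspan9b (0.998), igf2bp1 (0.997) and DNAJA4 (0.997). The genes most like snai1a were hcfc2 (0.980), acvr1l (0.979) and skilb (0.978), and those most like snai1b were hnrnpab (0.990), gas1a (0.986) and mst1 (0.983). For epcam they were fbxl14a (0.991), sec14l1 (0.971) and zpcx (0.971), and for itga5 ctnnbip1 (0.975), tia1l (0.975) and dhx8 (0.972).

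The authors' deposited tables, which list only genes they marked as significant, hold 14 entries for the 8 genes, none of them at 2.5 hpf or for CTCF MO at 4.5 and 10 hpf. At 10 hpf the authors' deposited table for Rad21 MO over WT gives a log2 ratio of -2.26 for has2 and -1.24 for snai2. At 5.3 hpf the authors' deposited table for CTCF MO over WT gives -0.64 for cdh1, -0.57 for itga5, -0.41 for snai2 and 0.53 for has2. For Rad21 MO over WT at 5.3 hpf the authors' deposited table gives -0.46 for itga5, -0.41 for snai1a and 0.51 for has2, and it does not list cdh1. For Rad21 MO over WT at 4.5 hpf the authors' deposited table gives -0.42 for snai1a and -0.50 for snai2, without cdh1. At 3.3 hpf it gives 0.52 for snai2 in Rad21 MO over WT. Here cdh1 was called for Rad21 MO at 4.5 and 5.3 hpf, where the authors do not list it. Listed by the authors but not called here were has2 at 3.3 hpf for both morpholinos and snai2 at 3.3 hpf for Rad21 MO. The same held for snai1a at 4.5 hpf for Rad21 MO and snai2 at 5.3 hpf for CTCF MO.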

How the data were processed

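Ribosomal RNA was removed from total RNA and stranded Illumina libraries were made from pooled whole embryos, per the labels' protocols. The submitters' processing notes name the genome build Zv9 (danRer7) and the programs TopHat2 2.0.9, Cufflinks 2.2.0 and Cuffdiff, with no roles and no Cuffdiff version. The deposited table holds FPKM per gene and library, and how the authors scaled libraries to each other is not given. Since FPKM is relative to the whole library, a change of abundant RNAs moves all other values. The authors' deposited comparison tables hold group FPKM, a log2 fold change and a q-value. Low FPKM values put the relative depth of the libraries within a 2.46-fold span, but the commonest step between them was shared by only 25.8% to 37.2% of low genes, so whole reads were not recovered and no count test was run.

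Groups follow the sample titles, and columns were matched by the state and stage in their names; the column numbers 0, 1 and 2 are not tied to the titles' replicate letters. FPKM was tested as log2(FPKM + 1), a scale that understates changes of low genes, with the two-sided test of limma 3.58.1 in R 4.3.3, its variance prior following mean level, over genes with at least 3 libraries of the fit at 1 FPKM, with Benjamini-Hochberg adjustment over all of them. A fit took the 9 libraries of a stage, the 15 of WT for its course, or all 45 for differences of effects. The method was tested on simulated data. The 8 members and the lists of partner and marker genes were chosen with earlier results of these data known. Partner genes named are the up to 2 per list and comparison with the smallest adjusted p under 0.05, no overlap between groups and a mean of at least 5 FPKM; symbols were also looked up through RefSeq synonyms. Whether column numbers pair libraries was checked by the correlation of deviations from group means: only for Rad21 MO and WT at 5.3 hpf did all 3 same-numbered pairs exceed 0.1 (0.189, 0.235 and 0.162), and a block by number changed no member's call there. Alternatives were a pseudocount of 0.1, no filter, rescaling to 1e+06, quantile normalization, the block, 1 fit of all 45 libraries and leaving out each library. Plots used Python 3.11.15, pandas 2.3.3 and matplotlib 3.10.9, and tables were read with data.table (version 1.17.8).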

Additional observations from a re-analysis of the deposited data

Results flagged for a closer look

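For has2 the Rad21 MO effect differed between 10 and 5.3 hpf by -2.39 ± 0.25 on the log2 scale (limma, adjusted p = 4.69e-08), in a test of the difference itself. The gene was higher than WT in all 3 Rad21 MO libraries at 5.3 hpf and lower in all 3 at 10 hpf, and the call held in all 17 alternatives, which gave -2.97 to -2.27.

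For itga5 the CTCF MO effect differed between 10 and 5.3 hpf by 0.53 ± 0.14 (limma, adjusted p = 0.0180). All 3 CTCF MO libraries lay below WT at 5.3 hpf and the groups overlapped at 10 hpf. This call was lost in 5 of 17 alternatives, which gave 0.32 to 0.60.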

How the results depend on the processing

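Of 34 calls of the 8 genes over all comparisons, 23 held in every alternative, among them has2 and snai2 in Rad21 MO embryos at 10 hpf against WT and against CTCF MO. Rescaling to a common sum left 0 of the 2 calls for Rad21 MO at 4.5 hpf, 1 of the 4 at 5.3 hpf (has2, so that the split of 1 higher and 3 lower became 1 higher and 0 lower) and 0 of 1 for the CTCF MO effect at 10 minus 5.3 hpf; quantile normalization left 0, 1 and 0 as well. Both gave 2 instead of 1 for the Rad21 MO effect at 10 minus 5.3 hpf, adding snai2. In WT at 4.5 against 3.3 hpf quantile normalization turned the uncalled epcam change from 0.04 to -0.95 and called it (limma, adjusted p = 0.00557). The common sum called has2 lower in WT at 5.3 against 4.5 hpf (-0.65, adjusted p = 0.0244). The cdh1 change in Rad21 MO embryos turned to 0.0899 at 4.5 hpf with quantile normalization, and at 5.3 hpf to 0.0117 with the common sum and 0.0084 with quantile normalization. No filter gave 1 call for Rad21 MO at 4.5 hpf, more genes sharing the adjustment. The replicate block by column number gave 4 there instead of 2, adding snai1a and itga5 (limma, adjusted p = 0.0162 and 0.0104). Over all genes it raised the calls of that comparison from 3077 to 3891. In the correlation check at 4.5 hpf, library 1 correlated positively only with WT library 1 (r = 0.302 for Rad21 MO, 0.131 for CTCF MO). The numbers did not pair all libraries. Same-numbered r was 0.0698 for Rad21 MO library 0 and -0.0736 for library 2, and 0.0423 and -0.0417 for CTCF MO. The block changed no other count of calls of the 8 genes by over 1.5 times. A fit of all 45 libraries gave 2 calls instead of 0 for Rad21 MO at 3.3 hpf, 1 for CTCF MO at 3.3 hpf, 4 for Rad21 MO at 4.5 hpf (snai1a, snai1b and itga5 added, cdh1 lost), and 1 each for CTCF MO against WT and Rad21 MO against CTCF MO at 4.5 hpf; at 5.3 hpf it gave 3 instead of 4 for Rad21 MO, cdh1 being lost. The same fit of all 45 libraries called itga5 lower for Rad21 MO at 10 hpf (limma, adjusted p = 0.0411). It also called cdh1 higher in WT at 4.5 against 3.3 hpf (adjusted p = 0.0402). Leaving out 1 library gave 0 to 1 calls for Rad21 MO at 4.5 hpf, 2 to 4 for Rad21 MO at 5.3 hpf and 0 to 1 for the CTCF MO effect at 10 minus 5.3 hpf. Except where a setting's construction shows it, the cause was not tested. Without read totals, no limit of detection can be given for snai1b and has2 at 2.5 hpf.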

Other observations

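Counts of matrix and transition genes around the 8 leaned to higher calls late in WT gastrulation, a direction that the filter of the WT fit favours. At 10 against 5.3 hpf all 12 tested fibronectin, laminin and basement membrane genes were higher (median log2 change 2.23, beside 0.07 over all genes and 68.9% of all genes called). The fibronectin gene fn1a, which encodes a ligand of integrin α5 and is also a marker of the yolk syncytial layer, had 85.9 ± 3.20 FPKM at 10 hpf, against 11.1 ± 1.13 FPKM at 5.3 hpf (n = 3 each, SD; log2 change 2.85 ± 0.18, limma adjusted p = 1.02e-08). Of 11 other transcription factors of epithelial-mesenchymal transition 8 were higher and 1 lower, of 14 other integrin genes 9 were higher and 2 lower, and of 8 hyaluronan genes 6 were higher and 1 lower. These counts favour higher calls, since the 3 libraries of 10 hpf alone could bring a gene through the filter of the WT fit. In the fit of 5.3 hpf only 6 basement membrane genes, 5 transcription factors, 8 integrin genes and 5 hyaluronan genes passed that filter. For the genes that passed only by their level at 10 hpf, being higher there is no separate result. The EpCAM and matriptase pathway went the other way, with 5 of 7 genes lower and none higher. Its protease gene st14a had 23.4 ± 6.24 FPKM at 10 hpf, against 124 ± 5.07 FPKM at 5.3 hpf (log2 change -2.39 ± 0.16, adjusted p = 1.47e-08).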
